A study of Mus musculus with 69 samples.

Results

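Ezh2 and Suz12 are subunits of one complex, and 298 of the 450 Ezh2 peaks of wild-type cells lay on a Suz12 peak. These 298 regions are called shared peaks here. They were chosen by position: a peak of the authors' merged wild-type Ezh2 list (ES cells, day 4 and day 8 together) was kept where it overlapped a peak of the merged wild-type Suz12 list by at least 1 bp in mouse build mm10. The overlap with the merged Suz12 peaks therefore chose the members and is given as a description only. The other 152 Ezh2 peaks had no Suz12 peak, and 259 of the 491 merged Suz12 peaks had no Ezh2 peak.

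The study grew CJ7 mouse embryonic stem (ES) cells on a feeder layer in medium with LIF and serum, and differentiated them as embryoid bodies in hanging drops in serum medium. Chromatin was profiled by CUT&RUN, in which an antibody brings a nuclease to the chromatin it binds, and transcripts were measured by RNA-seq. Wild-type and EZH2-mutant cells were taken as ES cells and at days 4 and 8 of differentiation, with 3 RNA-seq libraries per group. The labels give neither the mutant allele nor the number of mutant clones, nor whether replicates came from separate cultures, so p-values measure the spread between these libraries, which may be technical. In a drug series, cells received 4 µM GSK343, an inhibitor of the EZH2 methyltransferase, from 3 days before differentiation, to the end of the experiment, or DMSO as vehicle, with 2 libraries per group at each of the 3 stages. Embryoid bodies of the drug series were also replated into ES medium for 5 days and collected at day 14, after DMSO throughout, DMSO then GSK343, GSK343 then DMSO (3 libraries each) or GSK343 throughout (2 libraries used here). All groups are CJ7 cells and share the feeders and media. The IgG libraries and the H3K27me3 libraries of the mutant were not analysed here.

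Polycomb repressive complex 2 (PRC2) places methyl groups on lysine 27 of histone H3 through its catalytic subunit Ezh2, and Suz12 is a core subunit needed for the complex to hold together. Polycomb repressive complex 1 (PRC1), with the ubiquitin ligase Ring1B, binds many of the same places, in part because its Cbx subunits recognise the trimethylated lysine, H3K27me3. In ES cells these complexes are known for covering CpG-rich promoters of genes that encode developmental transcription factors and signalling proteins, most of which are silent there.

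The promoters below show the sequence under shared peaks at genes whose transcripts the later results turn on. Each is the 250 bases before a RefSeq transcription start that lies inside a shared peak, on the gene's own strand and 5′ to 3′, from RefSeq on GRCm38.p6, the assembly of mm10. CG dinucleotides are in capitals. Hand2, Fgfr3 and Cbx8 are genes that were high at day 8 and low with GSK343, Ebf1 is a gene that was higher with GSK343, Zic1 and Barx1 were higher in the mutant, and Hoxa9 is shown for its few CG dinucleotides.
Hand2, chr8:57320733-57320982, plus strand: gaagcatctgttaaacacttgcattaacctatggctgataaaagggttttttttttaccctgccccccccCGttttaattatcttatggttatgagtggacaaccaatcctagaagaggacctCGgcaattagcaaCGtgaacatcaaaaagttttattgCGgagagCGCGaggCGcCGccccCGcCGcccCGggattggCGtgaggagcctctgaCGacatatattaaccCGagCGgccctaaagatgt
Fgfr3, chr5:33721474-33721723, plus strand: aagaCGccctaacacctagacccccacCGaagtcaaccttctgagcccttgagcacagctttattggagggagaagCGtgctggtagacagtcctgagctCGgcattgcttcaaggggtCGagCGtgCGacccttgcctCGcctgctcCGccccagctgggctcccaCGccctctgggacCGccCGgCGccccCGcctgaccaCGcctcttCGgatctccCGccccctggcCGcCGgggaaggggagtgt
Cbx8, chr11:119040914-119041163, minus strand: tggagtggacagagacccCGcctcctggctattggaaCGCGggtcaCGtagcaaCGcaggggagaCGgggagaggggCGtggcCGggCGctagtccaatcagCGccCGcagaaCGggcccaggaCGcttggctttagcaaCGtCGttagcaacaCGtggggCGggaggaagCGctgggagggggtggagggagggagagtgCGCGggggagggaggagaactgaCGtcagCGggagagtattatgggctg
Ebf1, chr11:44619978-44620227, plus strand: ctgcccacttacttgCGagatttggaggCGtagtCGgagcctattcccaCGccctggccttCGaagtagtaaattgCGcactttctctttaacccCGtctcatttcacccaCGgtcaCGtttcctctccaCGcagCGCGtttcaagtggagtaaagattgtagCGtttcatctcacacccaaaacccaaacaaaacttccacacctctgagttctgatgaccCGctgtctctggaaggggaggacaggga
Zic1, chr9:91365769-91366018, minus strand: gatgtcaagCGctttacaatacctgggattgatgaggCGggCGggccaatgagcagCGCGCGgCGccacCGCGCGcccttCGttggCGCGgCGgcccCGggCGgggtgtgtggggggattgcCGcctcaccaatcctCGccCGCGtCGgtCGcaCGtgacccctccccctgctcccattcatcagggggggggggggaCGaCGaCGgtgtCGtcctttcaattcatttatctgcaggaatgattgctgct
Barx1, chr13:48662786-48663035, plus strand: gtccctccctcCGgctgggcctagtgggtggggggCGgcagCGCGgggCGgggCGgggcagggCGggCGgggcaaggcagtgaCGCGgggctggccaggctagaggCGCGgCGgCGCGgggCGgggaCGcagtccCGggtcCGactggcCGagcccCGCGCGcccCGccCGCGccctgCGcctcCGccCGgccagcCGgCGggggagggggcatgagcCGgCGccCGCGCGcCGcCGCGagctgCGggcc
Hoxa9, chr6:52227371-52227620, minus strand: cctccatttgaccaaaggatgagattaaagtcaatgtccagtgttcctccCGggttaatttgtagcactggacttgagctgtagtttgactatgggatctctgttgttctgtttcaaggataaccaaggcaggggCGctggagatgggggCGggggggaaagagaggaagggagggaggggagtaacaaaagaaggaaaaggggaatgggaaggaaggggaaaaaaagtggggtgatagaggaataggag

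CG dinucleotides were dense in most of these promoters. They numbered 40 in the 250 bases before Barx1, 27 before Zic1, 22 before Cbx8, 19 before Fgfr3, 15 before Hand2 and 14 before Ebf1, but 3 before Hoxa9. Over the 298 promoters of 234 genes whose start lay inside a shared peak, the 300 bases around the start held a median of 19 CG dinucleotides, a GC content of 61.0% and an observed-to-expected CpG ratio of 0.741. Over all 32851 RefSeq promoters the same medians were 7, 52.7% and 0.384. The motif CGCG occurred in 75.5% of promoters in shared peaks and in 38.0% of all promoters. The promoters inside Ezh2 peaks without Suz12 held CGCG in 76.9% and had a median of 18.5 CG dinucleotides, close to the values of the shared peaks. GAGAGA was found in 25.2% of promoters in shared peaks against 23.9% of all promoters, GGGCGG in 51.3% against 35.7%, CACGTG in 7.72% against 7.15%, TAATTA in 4.36% against 5.29% and AGATAA in 7.38% against 11.2%. GGGCGG was more frequent in the other 2 peak sets, at 61.5% in Ezh2 peaks without Suz12 and 62.2% in Suz12 peaks without Ezh2. GAGAGA was at 15.4% and 33.3% in those sets. Motifs were searched on both strands, CGCG and GGGCGG can share bases with each other, and a match describes letters only.

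The shared peaks were long. Their median length was 5140 bases, with quartiles of 2985 and 8190 bases and a range of 1501 to 61199 bases, and together they covered 1982 kb. The median was 2163 bases for Ezh2 peaks without Suz12 and 2821 bases for Suz12 peaks without Ezh2. The longest shared peak, chr11:96277159-96338357, spanned 61199 bases and held the starts of Hoxb3 to Hoxb9, genes of the HoxB cluster that specify position along the body axis. The next was chr11:119034155-119060506 (26352 bases) at Cbx8, which encodes a PRC1 subunit. Then came chr2:74678144-74701416 (23273 bases) at Hoxd9, Hoxd10 and Hoxd11, chr6:52216407-52238469 (22063 bases) at Hoxa7, Hoxa9 and Hoxa10, and chr19:44740924-44762484 (21561 bases) at Pax2, a homeobox-family regulator of kidney and eye development. All 4 Hox clusters carried shared peaks: 6 in HoxA at 11 of its 11 genes, 7 in HoxB at 9 of 10, 10 in HoxC at 9 of 9 and 6 in HoxD at 5 of 9.

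Shared peaks were not all separate domains. The 298 lay in 232 merged Suz12 peaks, of which 42 held 2 or more and together accounted for 109 shared peaks, with as many as 11 under a single Suz12 peak. Suz12 covered 278 of the 298 fully and 296 over at least 50% of their length. Just inside the rule were the peaks at Wnt9a (chr11:59307399-59309800, 704 bases of overlap), Aldh1a2 (chr9:71216054-71217594, 1048 bases) and Fzd2 (chr11:102604120-102606103, 1233 bases). Just outside it were chr8:70109347-70110954 near Ncan, 306 bases from a Suz12 peak, and chr4:152125065-152126781 near Espn, 3570 bases away. Chromosome 11 held 46 shared peaks (15.4%), chromosome 2 held 30 and chromosome 8 held 24 (8.05%), while chromosomes 11 and 8 carry 7.35% and 4.76% of RefSeq protein-coding genes. Chromosome X held 0. In the 9 lists of Suz12 peaks called in single libraries, chromosomes 8 and 11 together held between 22.1% and 48.4% of all peaks, so that excess was not limited to shared peaks, and its part in their positions was not tested.

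The other marks that the rule did not use sat on nearly all shared peaks. H3K27me3 of wild-type cells overlapped 297 of 298 (99.7%, exact 95% Clopper-Pearson lower bound 98.1%), and Ring1B overlapped 272 (91.3%, interval 87.5 to 94.2%). Ezh2 peaks without Suz12 carried H3K27me3 in 73.7% and Ring1B in 27.6% (20.7 to 35.5%), and Suz12 peaks without Ezh2 in 85.3% and 49.4% (43.2 to 55.7%). Neighbouring peaks share domains and libraries, so these intervals cover counting error only and no test was made on peaks. Length moved with the overlap. Ring1B lay on 80.0% of shared peaks of 1500 to under 3000 bases, 91.8% of those of 3000 to under 6000 bases and 97.6% of those of 6000 bases or more. In the same 3 bands the shares were 23.0%, 29.3% and 63.6% for Ezh2 peaks without Suz12, and 31.9%, 59.0% and 87.8% for Suz12 peaks without Ezh2. The shared peaks were thus above both other sets in every band, although in the longest band the interval of the shared peaks (93.2 to 99.5%) overlapped that of the Suz12 peaks without Ezh2 (73.8 to 95.9%). All shared peaks in the Hox clusters carried Ring1B.

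**Figure D1:**
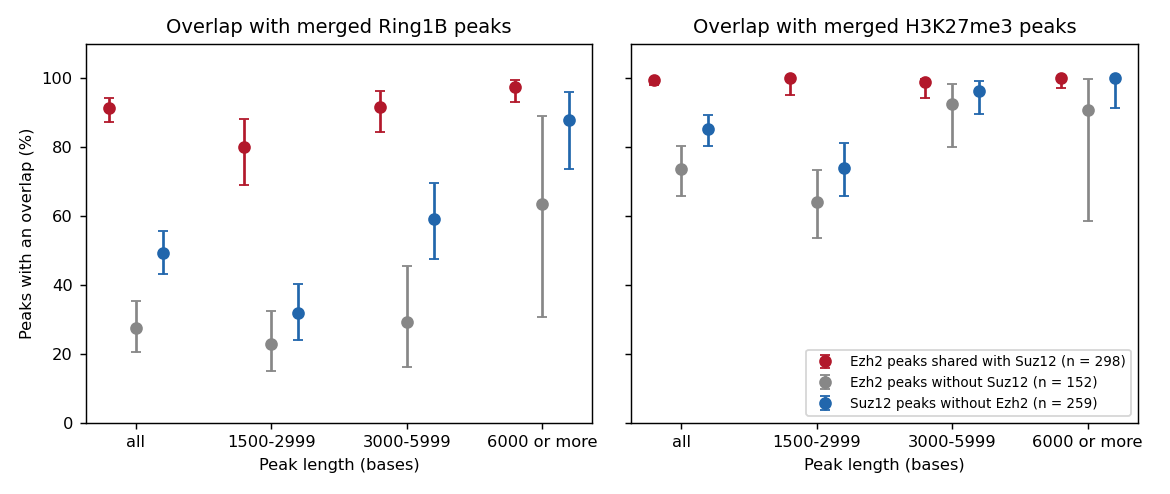
Percentage of peaks (vertical axis) that overlapped a merged wild-type Ring1B peak (left) or H3K27me3 peak (right), for all peaks and in 3 bands of peak length in bases (horizontal axis), with exact 95% binomial intervals as bars. Red points (298 shared peaks) lie above grey points (152 Ezh2 peaks without Suz12) and blue points (259 Suz12 peaks without Ezh2) for Ring1B in every band, from 80.0% to 97.6%.

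H3K27me3 reached far beyond these regions, and Ring1B less far. Only 213 of the 11884 merged H3K27me3 peaks (1.79%) held a shared peak, and those 213 had a median length of 31667 bases against 4659 bases for the rest. Of the 782 merged Ring1B peaks, 197 (25.2%) held a shared peak, with medians of 17581 and 2425 bases. The shared peak without H3K27me3, chr17:3028027-3032496, was covered by Suz12 over 34.1% of its length. It lay 82476 bases from the nearest gene start, as defined in the next paragraph. It was singled out after its values were seen.

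Most shared peaks lay at gene starts. Starts were RefSeq starts and, for protein-coding genes without a listed start, both ends of the gene. All shares and distances to starts here count these ends. A start so defined fell within 1 kb of 223 shared peaks (74.8%, 69.5 to 79.7%) and within 5 kb of 86.6%. Within 1 kb the shares were 64.5% of Ezh2 peaks without Suz12 and 73.7% of Suz12 peaks without Ezh2. Proximity rose with length, from 49.3% of the shared peaks under 3000 bases to 90.5% of those of 6000 bases or more. At equal length the shared peaks did not stand out. Under 3000 bases a start lay near 59.0% of Ezh2 peaks without Suz12 and 67.4% of Suz12 peaks without Ezh2, both above the shared peaks. From 3000 to under 6000 bases the shares were 74.2% (shared), 73.2% and 75.9%. For 6000 bases or more they were 90.5%, 81.8% and 90.2%. In all, 322 genes were placed at shared peaks, 228 of them protein-coding, with up to 7 at a single peak. Of these genes 251 were placed by a listed start, and 71 protein-coding genes without one by an end of the gene lying within 1 kb. The gene lists of developmental transcription factors counted here had these members at shared peaks: 34 Hox genes, 51 other homeobox genes, 24 T-box, forkhead, GATA and Sox genes and 8 basic helix-loop-helix genes. Another 10 were signalling ligands and receptors. Cdkn2c, which encodes the cyclin-dependent kinase inhibitor p18, was the only INK4 or CIP inhibitor gene there, and the INK4 genes Cdkn2a and Cdkn2b were not at a shared peak. No PRC2 subunit gene was placed at one, and 2 PRC1 subunit genes were, Cbx8 and Bmi1. In the authors' deposited table, a column that marks PRC2 targets read yes for 144 of 144 of these genes that the table holds (100%), for 57 of 76 (75%) at Ezh2 peaks without Suz12, for 143 of 168 (85.1%) at Suz12 peaks without Ezh2 and for 4777 of 14833 genes in all (32.2%). How the authors set that mark is not stated, so it is no independent evidence.

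Suz12 peaks called in single libraries allowed wild-type and mutant cells to be set side by side. There were 9 such lists, of 1000 to 8810 peaks. In ES cells the wild-type list (replicate 2) overlapped 28.9% of the shared peaks, and the mutant lists overlapped 69.5% (replicate 1) and 31.9% (replicate 2). At day 4 the wild-type list overlapped 8.05%, and the mutant lists 23.5% and 17.8%. At day 8 the wild-type list overlapped 100%, and the mutant lists 28.2% and 89.3%. In ES cells and at day 8 the second mutant list thus lay near wild type and the first far from it, and at day 4 both were above wild type, whose list was the shortest, with 1000 peaks. The mutant mean was 21.8 percentage points above wild type in ES cells, 12.6 points above at day 4 and below it at day 8 (a difference of -41.3). Averaged over stages the difference was -2.29 points, a value that holds the day 8 wild-type list and is given as a description, with no test.

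The day 8 wild-type list is not independent of the rule that chose the shared peaks. Of the 491 merged Suz12 peaks, 417 had an end in common with a peak of that list and 371 matched it at both ends within 1 base, while none of the other 8 lists shared an end with any merged peak (0 in each). The 100% overlap at day 8 is therefore a property of the choice. With ES cells and day 4 alone, an alternative chosen after seeing the data, the mutant was 17.2 points above wild type (two-sided exact permutation p of 0.3333, where the 9 arrangements cannot give less than 0.1111). The lists also differed in how they were called, since the shortest peak was 1001 bases in the wild-type lists and 487 or 501 bases in the mutant lists. Calling and genotype changed together, so the difference and its p cannot tell them apart. The part of calling in the shares was not tested.

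**Figure D2:**
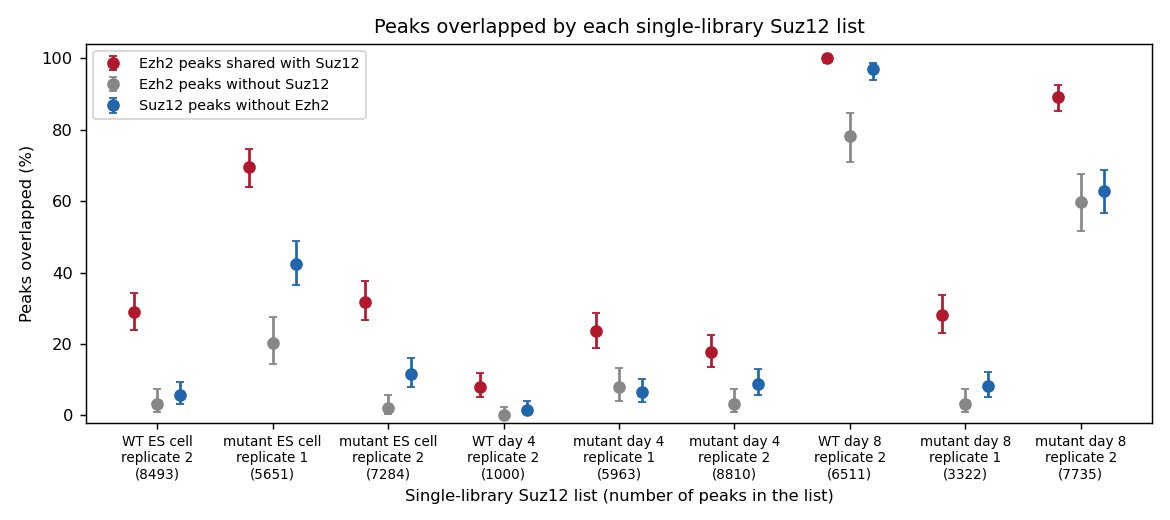
Percentage of peaks (vertical axis) overlapped by each of the 9 Suz12 lists called in single libraries (horizontal axis, with the number of peaks in each list), with exact 95% binomial intervals as bars. The red points (298 shared peaks) range from 8.05% at wild-type day 4 to 100% at wild-type day 8, where the list also fixed which peaks count as shared.

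Shared peaks differed in how often the mutant lists held them. Of the 298, 23 were in 0 of the 6 mutant lists, 61 in 1, 74 in 2, 57 in 3, 38 in 4, 27 in 5 and 18 in 6. The 18 in every mutant list included the peaks at Hoxb3 to Hoxb9, Hoxd9 to Hoxd11, Hoxa7, Hoxa9 and Hoxa10, Cbx8, Tbx2, Six3, Sox1, Foxf1 and Uncx, all but Cbx8 genes of developmental transcription factors. Longer peaks were in more lists, where an overlap of 1 bp counted, and the part of length alone was not tested. The first mutant ES cell list held 44.0% of the shared peaks under 3000 bases, 68.0% of those of 3000 to under 6000 bases and 85.7% of those of 6000 bases or more, and the second mutant day 8 list held 81.3%, 82.5% and 99.2%. Ezh2 peaks without Suz12, which are shorter, were at 20.4% and 1.97% in the mutant ES cell lists and 3.29% and 59.9% in the mutant day 8 lists. At equal length the order was not fixed: of peaks of 3000 to under 6000 bases, the second mutant day 8 list held 87.8% of Ezh2 peaks without Suz12 and 82.5% of shared peaks, while the first mutant ES cell list held 41.5% and 68.0%.

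RNA-seq values were RPKM, read counts scaled to gene length and library depth. Libraries held 7.17 to 28.5 M reads in the wild-type and mutant table, 5.01 to 22.0 M reads in the drug table and 2.27 to 8.34 M reads in the replated table. These totals include the ribosomal RNA gene Rn45s. Without it, wild-type day 4 replicate 2 held 3.22 M of its 7.64 M reads and mutant day 8 replicate 2 held 4.45 M of 7.17 M. Ezh2 transcript was 37.2 to 62.5 RPKM over the 9 wild-type libraries and 18.3 to 26.5 RPKM over the 9 mutant libraries, with no overlap; the altered part of the gene is not stated. Wild-type day 8 replicate 3 stood apart from its group. Its correlation with the nearer of the other wild-type day 8 libraries was 0.904, and with mutant day 8 replicate 3 it was 0.969. Wild-type replicate 3 was nearer to mutant replicate 3 at the earlier stages too. The same 2 correlations were 0.933 and 0.967 in ES cells and 0.954 and 0.990 at day 4. The summed level of 6 ES cell markers was 51.1, 51.0 and 555.1 RPKM in wild-type day 8 replicates 1, 2 and 3. The summed level of 8 fibroblast genes, listed as markers of feeder cells and all 8 detected, was 282.1, 326.3 and 10.4 RPKM in the same libraries. At wild-type day 4 that sum was 9.01, 9.77 and 5.57 RPKM. These genes do not tell feeder cells from fibroblasts formed in the embryoid bodies, and their source was not tested. Counts at day 8 of wild type are given with and without replicate 3, because it stood apart. In such bulk samples, fewer cells of a type and less RNA per cell cannot be told apart.

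Genes at shared peaks were weakly transcribed. Of the 322, 126 were in the wild-type and mutant table, 128 in the drug table and 144 in the replated table, and genes silent in every library are not in these tables. The median of group means was 0.24 RPKM at wild-type day 4 and 1.17 RPKM at wild-type day 8, while that over all genes of the table was 6.49 and 7.07 RPKM. Under 1 RPKM were 72.2% of the 126 in wild-type ES cells, 82.5% at day 4 and 46.8% at day 8, compared with 18.2 to 21.9% of all genes in those groups. In the drug table, 45.3% of the 128 were under 1 RPKM at day 8 in DMSO and 65.6% in GSK343. The tests below use genes with at least 0.5 RPKM in as many libraries as the smallest group holds: 106, 113 and 134 of the 322. A log2 change is the difference between group means of log2(RPKM + 1), which understates the change of low genes, with its standard error (SE). Calls are at a Benjamini-Hochberg adjusted p under 0.05 from limma over all genes tested.

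Between ES cells and day 4 of wild-type cells, few of these genes moved: 4 of the 106 tested rose and 9 fell, where 4.29% and 4.39% of all genes tested did. Fzd2, a Wnt receptor, was at 5.62, 3.05 and 6.54 RPKM in the ES cell libraries and 31.0, 33.7 and 9.64 RPKM at day 4. Every day 4 library was above every ES cell library, with a log2 change of 1.96 (SE 0.48, adjusted p 0.0207). Rtn4rl1 (1.55), Col2a1, a fibrillar collagen gene (1.08), and Ebf1, a transcription factor gene of B cells and mesenchyme (1.02), rose too. Ntn1, which encodes the guidance molecule netrin-1, was at 34.3, 18.6 and 22.0 RPKM in ES cells and 1.30, 1.37 and 15.3 RPKM at day 4, a log2 change of -2.49 (SE 0.57, adjusted p 0.0147). Hs3st3b1 (-1.86), Nkx6-2 (-1.76), Gad1 (-1.28), Sox21 (-1.25), Hoxb9 (-0.95) and Wnt3a (-0.82) also fell. Day 4 replicate 3 lay nearest to the ES cell values for both Fzd2 and Ntn1. Markers moved too: the 8 feeder fibroblast genes summed to 34.7, 28.1 and 450.1 RPKM in ES cell replicates 1, 2 and 3 and to 9.01, 9.77 and 5.57 RPKM at day 4, and the 6 ES cell markers to 1650, 1590 and 1192 RPKM and 551.1, 614.1 and 1229 RPKM. Hoxb9 was at 0.327, 1.15 and 2.28 RPKM in those ES cell libraries, highest where the feeder genes were, and no listed marker of either kind was at 0. The part of these in the calls was not tested. The 13 calls became 3 without day 4 replicate 1 or 2, 6 without ES cell replicate 1 and 5 without ES cell replicate 2, and the call of Ebf1 ended without any of 5 of the 6 libraries.

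Between day 4 and day 8 of wild-type cells, many of the tested genes rose: 43 of 106 were higher and 5 lower, where 10.6% and 10.2% of all genes tested were. The filter bears on these counts, since a gene could pass it through day 8 libraries alone and then had little room to fall. Adcy8 reached 0.5 RPKM only in wild-type day 8 replicates 1 and 2 (0.695 and 1.55 RPKM) and mutant day 8 replicate 1 (1.47 RPKM). Such genes were not counted, so the contrast with all genes is a description. Their median log2 change was 0.69 and that of all genes -0.01, and 81 of the 106 had a positive change. At Ezh2 peaks without Suz12, 8 of 71 rose and 8 fell, and at Suz12 peaks without Ezh2, 35 of 161 rose and 16 fell. The count rested on which day 8 libraries entered. Without day 8 replicate 3, 56 rose and 11 fell (15.7% and 15.3% of all genes). Without day 8 replicate 1 it was 5 and 2 (3.06% and 2.78%), and without day 8 replicate 2 it was 4 and 2 (3.61% and 3.41%). Without day 4 replicate 1 it was 16 and 2 (5.51% and 5.38%), without replicate 2 it was 16 and 2 (5.02% and 5.7%), and without replicate 3 it was 18 and 4 (7.12% and 7.39%). Markers of other cell types moved with these genes: in wild-type day 8 replicates 1 and 2 the 6 endoderm markers summed to 112.0 and 126.1 RPKM, the 4 blood and endothelium markers to 223.4 and 415.1 RPKM and the 3 cardiac markers to 22.4 and 20.0 RPKM, while replicate 3 gave 8.65, 11.8 and 0.403 RPKM. Every marker of these lists was detected in that group, and their part in the rises was not tested.

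The 4 largest rises were at Hand2, Hand1, Gata6 and Fgfr3. Hand2, a basic helix-loop-helix factor of heart and limb, was at 0 RPKM in all 3 day 4 libraries and at 97.3, 80.7 and 0.0890 RPKM at day 8. Day 8 replicates 1 and 2 were high and replicate 3 nearly at 0, and the log2 change was 4.36 (SE 1.36, adjusted p 0.0343). Its relative Hand1 was at 84.3, 105.0 and 0.0210 RPKM at day 8 (log2 change 4.13, SE 1.33, adjusted p 0.0391), with day 8 replicate 3 below the 3 day 4 libraries (0.106, 0.461 and 0.0681 RPKM), so the groups overlapped. Leaving out any single library from either day ended both of these calls except day 8 replicate 3. Gata6, a GATA factor of primitive endoderm and heart, was at 0.157, 0.365 and 0.455 RPKM at day 4 and 45.6, 45.5 and 1.68 RPKM at day 8 (log2 change 3.77, SE 0.86, adjusted p 0.00886). Fgfr3, a receptor for fibroblast growth factors, was at 0.192 to 0.441 RPKM at day 4 and 36.3, 30.5 and 1.70 RPKM at day 8 (log2 change 3.51, SE 0.85). For Gata6 and Fgfr3 all day 8 libraries were above all day 4 libraries, and both calls ended without day 8 replicate 1 or without replicate 2.

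By gene group, counts are to be read against the 10.6% of all genes that rose, with the same limit from the filter. Of the Hox genes tested at shared peaks, 4 of 8 rose and 0 fell (median log2 change 1.35), among them Hoxb2, Hoxb3 and Hoxb4, anterior genes of their cluster. Of other homeobox genes 7 of 20 rose and 1 fell (0.58), Irx3 rising by 2.69. Of T-box, forkhead, GATA and Sox genes 6 of 13 rose (0.90), and of basic helix-loop-helix genes 3 of 3 did: Hand1, Hand2 and Tal1, a master regulator of blood (1.39). Of signalling genes 5 of 7 rose (0.63), among them Wnt9a at 0.93. Cdkn2c rose by 1.15 (SE 0.23, adjusted p 0.00415). Without day 8 replicate 3, an alternative chosen after seeing the data, the rises were 6 of 8 Hox genes, 10 of 20 other homeobox genes, 9 of 13 T-box, forkhead, GATA and Sox genes, 3 of 3 basic helix-loop-helix genes and 5 of 7 signalling genes. Without replicate 1, and likewise without replicate 2, 1 signalling gene rose and 0 genes of the other 4 groups did, while Cdkn2c stayed called. The 5 that fell included Otx2, C1ql1 (-1.70), Ebf1 (-1.51) and Trp73 (-0.89). Otx2, a homeobox factor of epiblast and forebrain, was at 59.0, 51.4 and 58.9 RPKM at day 4 and 4.90, 4.63 and 68.3 RPKM at day 8. Day 8 replicate 3 was above all day 4 libraries, so the groups overlapped.

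Both PRC1 genes at shared peaks were higher at day 8. Cbx8 was at 0.361, 0.837 and 0.371 RPKM at day 4 and 5.24, 5.50 and 1.40 RPKM at day 8, with all day 8 libraries above all day 4 libraries (log2 change 1.61, SE 0.32, adjusted p 0.00467). Bmi1, whose product is another PRC1 subunit, was at 0.699, 0.892 and 2.11 RPKM at day 4 and 7.57, 5.80 and 2.83 RPKM at day 8 (log2 change 1.49, SE 0.46, adjusted p 0.0329). With day 8 replicate 1 or 2 left out, 1 of the 2 genes stayed called.

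Few of these genes were called between mutant and wild type. In ES cells 0 of 106 were higher and 0 lower by limma, where 0.0635% and 0.0282% of all genes were, and 6 of the 106 had an unadjusted p under 0.05. At day 4 Barx1 alone was higher and 0 were lower (0.0282% and 0.0212% of all genes), with 15 at an unadjusted p under 0.05. The replicate numbers paired the libraries in this comparison, and with them as a block 3 genes were higher and 0 lower (0.113% and 0.0705% of all genes). Barx1, a homeobox factor of jaw and stomach mesenchyme, was at 1.61, 1.59 and 1.84 RPKM in mutant libraries and 0.480, 0.428 and 0.142 RPKM in wild-type ones, with no overlap (log2 change 0.998, SE 0.15, adjusted p 0.0128). The call ended without wild-type replicate 2, mutant replicate 2 or mutant replicate 3. The median log2 change of the 106 was 0.16 and that of all genes -0.01.

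At day 8, 4 of the 106 were higher in the mutant and 0 lower, where 1.3% and 0.212% of all genes were, and the median log2 change was -0.11 against -0.02. Zic1, a zinc-finger factor of the neural plate border, was at 3.13, 1.26 and 0.883 RPKM in mutant libraries and 0.0523, 0.0715 and 0.119 RPKM in wild-type ones. All mutant libraries were above all wild-type libraries (log2 change 1.27, SE 0.28, adjusted p 0.0416). At day 4 Zic1 was also above wild type in all 3 mutant libraries, at 3.02, 0.890 and 0.784 RPKM, but was not called (adjusted p 0.303). Dmrt3, a DM-domain factor of spinal interneurons, was at 2.68, 2.56 and 2.59 RPKM in mutant libraries and 0.659, 0.451 and 0.699 RPKM in wild-type ones (log2 change 1.18, SE 0.20, adjusted p 0.0133). Vax2, a homeobox factor of the ventral eye, and its antisense neighbour Vax2os had log2 changes of 1.19 and 1.36 (adjusted p 0.0151 and 0.00216). Without stated strand-specific counting, reads of these overlapping neighbours cannot be told apart.

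The day 8 mutant comparison turned on wild-type replicate 3. Without it, 8 of the 106 were higher and 22 lower (5.82% and 3.41% of all genes), and without wild-type replicate 1 or 2 a single gene was called, for a range of 1 to 30. The calls of Zic1, Vax2 and Dmrt3 ended without wild-type replicate 1 or 2. The mutant replicates were themselves spread: Hand2 was at 57.5, 2.23 and 0.621 RPKM and Gata6 at 22.5, 3.72 and 7.02 RPKM in mutant replicates 1, 2 and 3. The ES cell markers summed to 449.8, 1272 and 898.5 RPKM in those libraries, and the part of this in the comparison was not tested.

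Few of these genes were called with GSK343 before day 8. In ES cells limma called 0 of 113 higher and 0 lower, where 0% and 0% of all genes were called, and 15 of the 113 had an unadjusted p under 0.05. At day 4 Sfmbt2 alone was higher and 0 were lower (0.499% and 0.128% of all genes). Sfmbt2, which encodes a Polycomb-group protein that binds methylated histones, was at 1.49 and 1.30 RPKM in DMSO and 5.27 and 4.05 RPKM in GSK343 (log2 change 1.24, SE 0.19, adjusted p 0.0232). The GSK343 libraries were above both DMSO libraries, and the call ended without any 1 of the 4 libraries. With the replicate number as a block, 7 genes were higher and 0 lower (1.51% and 0.421% of all genes).

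At day 8 most of the tested genes differed. GSK343 embryoid bodies had 57 of 113 lower and 19 higher, where 16% and 15.6% of all genes tested were, and the median log2 change was -0.61 against 0.00. The filter bears on these counts. A gene that passed it through the 2 DMSO day 8 libraries alone could only be lower with GSK343 at day 8. Hoxb3os was such a gene, at 3.82 and 2.91 RPKM there and at most 0.0775 RPKM in any other library of the table. Genes that passed in this way were not counted, so the contrast with all genes is a description. At Ezh2 peaks without Suz12, 16 of 73 were lower and 18 higher, and at Suz12 peaks without Ezh2, 62 of 161 were lower and 19 higher. Leaving out 1 library at a time gave 62 to 73 calls. Cell type markers moved as well. The 6 ES cell markers summed to 122.0 and 111.0 RPKM in DMSO and 1061 and 1592 RPKM in GSK343. The endoderm markers (5 of 6 in this table) summed to 154.9 and 117.6 RPKM in DMSO and 20.2 and 3.39 RPKM in GSK343. The 8 fibroblast genes, of feeders or embryoid bodies, summed to 68.3 and 177.2 against 6.196 and 15.03 RPKM. The 4 blood and endothelium markers summed to 197.9 and 569.6 against 19.6 and 52.1 RPKM. The 4 neural markers summed to 17.0 and 17.5 against 80.1 and 69.8 RPKM. No listed marker was at 0 in either group, and their part in the differences was not tested.

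The largest falls were at Hand2, Hand1, Prdm6 and Fgfr3. Hand2 was at 42.2 and 50.3 RPKM in DMSO and 0.264 and 0.0482 RPKM in GSK343, a log2 change of -5.35 (SE 0.14, adjusted p 1.4935e-08). Hand1 was at 55.7 and 62.6 RPKM in DMSO and 0.958 and 0.852 RPKM in GSK343 (log2 change -4.98, SE 0.20). Prdm6, which encodes a smooth muscle chromatin regulator, was at 36.4 and 29.5 RPKM against 0.524 and 0.0414 RPKM (-4.74, SE 0.18). Each of these was far lower in both GSK343 libraries than in either DMSO library. Fgfr3 was at 24.3 and 38.1 RPKM against 0.539 and 0.438 RPKM (-4.40, SE 0.22). Gata6, further down the order, was at 29.8 and 30.2 RPKM against 4.41 and 0.624 RPKM (-3.39, SE 0.43). Sox17, an endoderm and endothelium factor, fell by 1.76 on the log2 scale (SE 0.52, adjusted p 0.0259).

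Most tested Hox genes fell. Counts of each gene group are to be read against the 16% of all genes tested that were lower and the 15.6% that were higher. The limit from the filter holds for them too. Of 11 Hox genes tested at shared peaks 7 were lower and 0 higher (median log2 change -1.75). Among them were Hoxa2, Hoxb2, Hoxb3, Hoxb4, Hoxd8 and Hoxd9. In the whole Hox list, which holds these 11, 11 of 15 were lower, so the fall was not limited to shared peaks. Hoxb3 was at 5.12 and 4.52 RPKM in DMSO and 0.0366 and 0.0579 RPKM in GSK343 (-2.47, SE 0.11). Of other homeobox genes 9 of 19 were lower and 5 higher (median -0.46), with Pitx1, a hindlimb and pituitary factor, at -3.41. Of T-box, forkhead, GATA and Sox genes 9 of 14 were lower and 1 higher (-0.94), Foxf1, a factor of gut and lung mesenchyme, falling by 3.51. Of basic helix-loop-helix genes 3 of 4 were lower and 1 higher (-3.52), and of signalling genes 5 of 8 were lower and 0 higher (-0.93). In the whole lists, members at shared peaks included, 18 of 42 other homeobox genes were lower and 12 higher. The counts were 22 and 8 of 56 T-box, forkhead, GATA and Sox genes and 10 and 2 of 15 basic helix-loop-helix genes. Of 90 signalling genes 39 were lower and 13 higher. Cdkn2c was lower by a log2 change of -0.89 (SE 0.24, adjusted p 0.0165), at 1.57 and 3.44 RPKM in DMSO and 0.585 and 1.10 RPKM in GSK343, and the call ended without DMSO replicate 2 or GSK343 replicate 1. Cbx8 was at 8.48 and 8.60 RPKM against 1.40 and 1.59 RPKM (-1.94, SE 0.18), while Bmi1 was at 9.71 and 8.49 against 8.02 and 3.85 RPKM and was not called (-0.61, adjusted p 0.188).

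The 19 genes that were higher with GSK343 included factors of neural tissue, epiblast and germ line. Otx2 was at 8.00 and 7.52 RPKM in DMSO and 65.1 and 51.5 RPKM in GSK343 (2.75, SE 0.30, adjusted p 0.000103). Dmrt1, a gonadal sex-determination factor, was at 1.49 and 1.98 RPKM against 6.93 and 20.1 RPKM (2.25, SE 0.35). Ebf1 was at 0.242 and 0.247 RPKM against 3.97 and 1.13 RPKM (1.39, SE 0.36), a call that ended when any of DMSO replicate 1, DMSO replicate 2 or GSK343 replicate 1 was left out. Pax6, an eye and brain factor, was higher by 0.51 at levels under 1 RPKM in every day 8 library of this table. Dmrt1 was also high in ES cells, at 15.5 and 15.2 RPKM in DMSO.

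**Figure D3:**
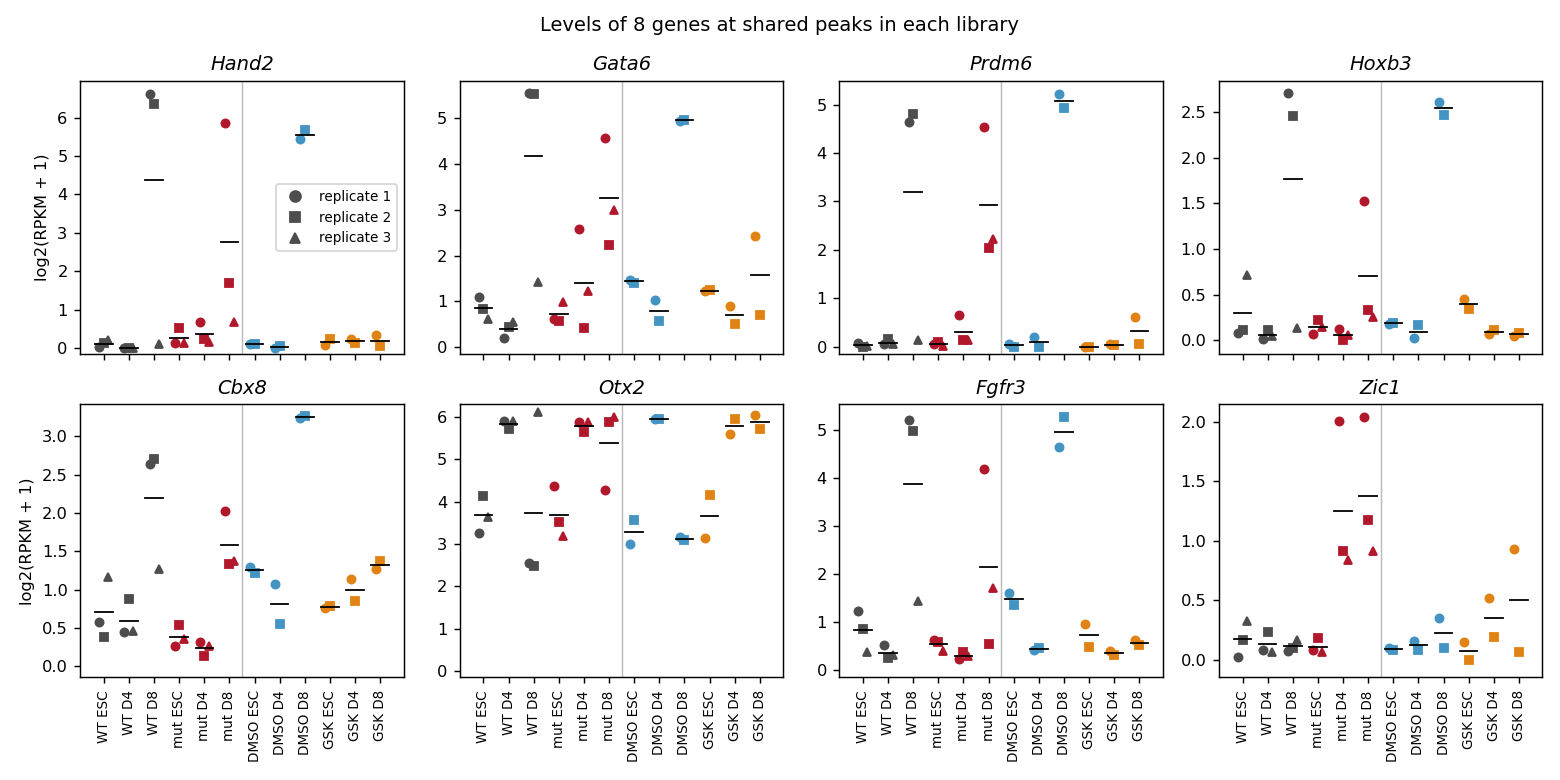
Level of 8 genes at shared peaks in each library, as log2(RPKM + 1) on the vertical axis, by group on the horizontal axis, left of the grey line wild type and mutant (mut) and right of it DMSO and GSK343 (GSK). Points are libraries, shaped by replicate, and bars are group means; wild-type day 8 replicate 3 (triangle) lies far below the other day 8 libraries for Hand2, Gata6, Prdm6, Fgfr3 and Hoxb3 and is the highest wild-type point for Otx2.

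The genes that fell with GSK343 at day 8 could be set beside those that rose in wild type from day 4 to day 8, because the comparisons share no library. The filter bears on both counts and so on their overlap, since genes low elsewhere could pass it through day 8 libraries alone in each table. Of 98 genes at shared peaks tested in both, 42 rose in wild type and 50 fell with GSK343, and 34 did both: 81.0% of the risen and 68% of the fallen. None rose in both (0). Over all 13792 genes tested in both, 1459 rose, 2194 fell and 836 did both, which is 57.3% of the risen and 38.1% of the fallen, and 5 rose in both. Without wild-type day 8 replicate 3, an alternative chosen after seeing the data, 54 rose and 46 did both (85.2% of the risen and 92% of the fallen), while over all genes 2140 rose and 1348 did both (63.0% and 61.4%). Without replicate 1 only 5 rose and 3 did both, and without replicate 2 only 4 rose and 2 did both. Hand2, Hand1, Gata6, Fgfr3, Prdm6 and Hoxb3 were among the 34, and Otx2 and Ebf1 moved the opposite way in each comparison.

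**Figure D4:**
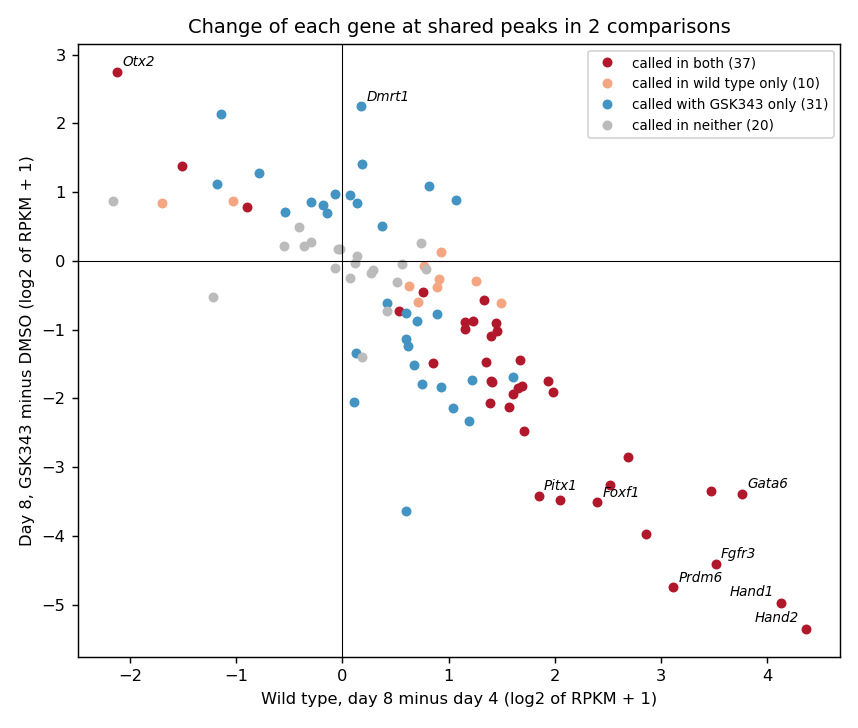
Log2 change of each of 98 genes at shared peaks from day 4 to day 8 in wild type with all 3 day 8 libraries (horizontal axis) and between GSK343 and DMSO at day 8 (vertical axis), both in log2 of RPKM + 1. Points are genes, coloured by the comparisons in which they were called; the called genes with the largest wild-type rises, such as Hand2 (4.36 and -5.35), lie at the lower right, and Otx2 lies at the upper left.

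Of the replated cells, 2 comparisons were tested, and with all libraries neither called a gene at a shared peak. GSK343 throughout was not tested. With GSK343 added only after replating, limma called 0 of 134 higher and 0 lower (0% and 0% of all genes), and 5 had an unadjusted p under 0.05. The median log2 change was 0.09, while that over all genes was -0.23. Hand2 was at 4.20, 7.83 and 7.63 RPKM after DMSO throughout and 11.8, 14.9 and 10.5 RPKM after DMSO then GSK343. The groups did not overlap, but Hand2 was not among the calls. Hoxa9, read in this table alone, was at 0.513, 1.52 and 0.982 RPKM and 1.61, 0.737 and 3.81 RPKM, which overlapped (log2 change 0.51, SE 0.42, adjusted p 0.885). Hoxd13 was at 1.11, 5.31 and 0.958 RPKM and 1.67, 1.12 and 0.827 RPKM, which overlapped too.

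With GSK343 during differentiation and DMSO after replating, limma again called 0 of 134 higher and 0 lower (0% and 0% of all genes), with 30 at an unadjusted p under 0.05 and a median log2 change of -0.28 against -0.09 for all genes. The Hox genes tested at shared peaks, 30 of them, had a median of -0.91. Hoxb3 was at 2.59, 2.74 and 5.12 RPKM after DMSO throughout and 1.10, 1.71 and 2.33 RPKM here, without overlap. Dmrt1 was at 0.735, 0 and 0 RPKM and 2.96, 0.846 and 2.23 RPKM, without overlap (log2 change 1.25, SE 0.32, adjusted p 0.169). DMSO replicate 1 differed from the other libraries of its group: the ES cell markers summed to 527.4 RPKM there and to 10.2 and 24.2 RPKM in replicates 2 and 3. Without it, 6 genes were higher and 2 lower (3.95% and 0.195% of all genes). The fibroblast genes, of feeders or embryoid bodies, summed to 649.1 to 6755 RPKM over the 11 replated libraries, and their part in these values was not tested. The 2 comparisons of replated cells share their DMSO libraries.

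**Figure D5:**
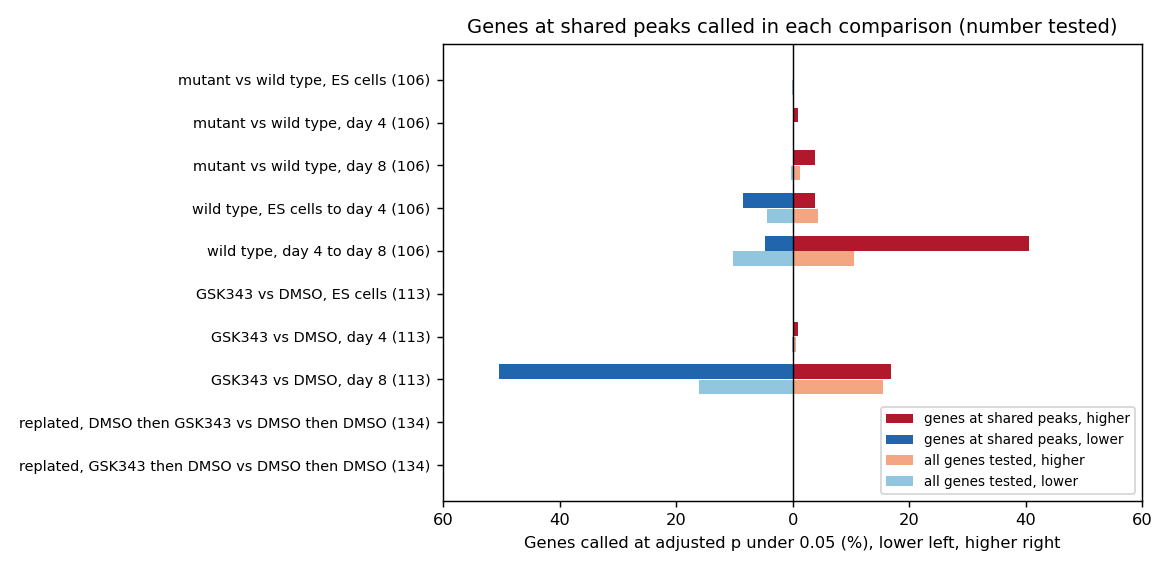
Percentage of genes called at an adjusted p under 0.05 by limma (horizontal axis, lower to the left and higher to the right) in each comparison (vertical axis, with the number of genes at shared peaks tested), dark bars for genes at shared peaks and light bars for all genes tested. The longest dark bars are the 40.6% that rose from day 4 to day 8 in wild type and the 50.4% that were lower with GSK343 at day 8. Genes could pass the filter through day 8 libraries alone, which bears on both bars.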

How the data were processed

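The authors deposited merged and single-library CUT&RUN peak lists and 3 tables of RPKM per gene. Per the submitters' processing notes, the build is mm10; RNA-seq used featureCounts 1.6.1, STAR 2.5.3, HOMER 4.10.3 and edgeR, and CUT&RUN used Bowtie2 2.3.4.3 with HOMER 4.10.3. Their settings and the merging of lists are not stated. Of the peak lists, deposited by the authors, positions alone were used, with no score. Deposited RPKM values stepped in whole reads (100% of values within 0.02 of a whole read), which gave the depths. In the wild-type and mutant table, RPKM times gene length summed to 0.811 to 2.23 times the value that plain RPKM gives, so each library carries a further scaling.

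Peaks were overlapped by at least 1 bp (Python 3.11.15). Genes were placed by RefSeq starts within 1 kb, or by either end of a protein-coding gene without a listed start. Expression was tested on log2(RPKM + 1) with limma 3.58.1 in R 4.3.3: all groups of a table in 1 fit, trended eBayes, Benjamini-Hochberg adjustment over all genes tested, threshold 0.05, genes kept at 0.5 RPKM or more in as many libraries as the smallest group holds. Shares have exact 95% Clopper-Pearson intervals (scipy 1.17.1). In simulated data for the day 8 mutant comparison (14180 genes), the fit recovered 23 of 50 genes changed by a log2 of 1. It recovered 44 of 50 changed by 2. For GSK343 at day 8 (14016 genes) it recovered 32 and 48 of 50. The changed genes were drawn from those with a mean log2(RPKM + 1) above 2. Many genes at shared peaks lay below that level, and these rates do not cover them.

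Replicate numbers deviated together in every pair, with correlations of 0.637, 0.29 and 0.806 for the mutant at day 4, 0.292, 0.151 and 0.26 for wild-type ES cells to day 4, and 0.222, 0.425 and 0.415 for day 4 to day 8. For the mutant in ES cells, replicates 1 and 3 deviated together (0.632 and 0.655) and replicate 2 did not (0.049). For the mutant at day 8 the values were 0.746 and 0.635 for replicates 1 and 3 and -0.259 for replicate 2. The main tests of these comparisons did not model that structure. In the replated comparisons not every number paired its libraries, and for GSK343 only 2 pairs existed. Alternatives were a pseudocount of 0.1, no filter, gene starts within 5 kb, a 50% overlap, a replicate block and leaving out single libraries.

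For each comparison the text names the 4 largest rises and falls among called genes at shared peaks, the gene with the smallest p in each gene list, and Pax6, Gata6, Sox17, Hoxa9 and Hoxd13. Some items that this rule names are not reported here. Lhx5 and Wnt1, also at shared peaks, are in no table. Other genes were named after their values were seen. The members and gene lists were chosen with earlier results of these data known.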

Additional observations from a re-analysis of the deposited data

Results flagged for a closer look

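The GSK343 effect at day 8 differed from that at day 4, by the limma interaction term over 14016 genes, for 56 of the 113 genes tested at shared peaks. Of these, 53 were more negative and 3 more positive at day 8. Over all 14016 genes 1709 differed, a total that was not split by direction. Among the genes named above, the difference between the log2 changes was -5.51 for Hand2 (SE 0.20, adjusted p 4.7505e-07), -5.40 for Hand1 (SE 0.28), -4.69 for Prdm6 (SE 0.26), -4.31 for Fgfr3 (SE 0.32), -3.70 for Foxf1 (SE 0.16) and -3.46 for Pitx1 (SE 0.23). It was -2.47 for Hoxb3 (SE 0.16), -2.12 for Cbx8 (SE 0.26) and -1.25 for Cdkn2c (SE 0.33, adjusted p 0.0365). It was 2.92 for Otx2 (SE 0.43) and 1.93 for Dmrt1 (SE 0.50, adjusted p 0.0312). At day 4 Hand2 was at 0 and 0.0415 RPKM in DMSO and 0.180 and 0.0951 RPKM in GSK343, and Otx2 at 61.3 and 60.5 RPKM in DMSO and 47.7 and 61.0 RPKM in GSK343. Genes near 0 in DMSO at day 4, such as Hand2, could not fall there. For them the difference largely restates the day 8 change, which was -5.35 for Hand2.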

How the results depend on the processing

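Several counts of called genes moved. The mutant day 4 count of 1 became 0 with a pseudocount of 0.1, 3 with replicate numbers as a block and 0 to 3 with single libraries left out, and the GSK343 day 4 count of 1 became 7 with the block and 0 to 0 with single libraries left out. Leaving out single libraries gave 1 to 30 calls for the mutant at day 8, 3 to 15 for wild-type ES cells to day 4, 6 to 67 for day 4 to day 8 and 0 to 8 for GSK343 then DMSO after replating. With 2 libraries per group this leaves 1 in an arm, which is assumed to vary like the other groups. The block changed no other count by over 1.5 times. The mutant minus wild-type difference in overlap with single Suz12 lists, -2.29 points, became 0.671 with replicate 2 paired by stage, -14.3 to 17.2 with single lists left out, and 17.2 with ES cells and day 4 alone. All but the last, and that without the wild-type day 8 list, hold a list that the choice of peaks fixed, so they are given with no test. Where shared meant at least 50% covered by Suz12, H3K27me3 lay on 100% of peaks. No named gene changed direction under any alternative run, and the cause of these shifts was not tested. Low levels also limit the tests: at most 134 of the 322 genes were tested in a table.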
